A study of Homo sapiens with 4 samples.

Results

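The 33 genes described here encode the enzymes that turn glucose into pyruvate and lactate and the proteins that carry pyruvate into mitochondria and govern its oxidation. They were chosen by gene symbol for their place in the pathway, and all 33 are among the 56655 symbols of each count table. RNA was sequenced from OVCAR5, an established human ovarian cancer cell line, after lentiviral delivery of a short hairpin RNA, a construct from which cells make a small RNA that acts against transcripts of matching sequence. The control group, shCtrl, carried a nontargeting hairpin and the other group, shFOXK2, carried a hairpin against the forkhead transcription factor gene FOXK2, with 2 libraries in each group. Both groups were stable lines selected with puromycin and grown in the same medium with serum and antibiotics, and no further treatment or time point was given. The labels give the hairpin no number, and the published legends name it shFOXK2-2. The FOXK2 binding data of the same study were not analysed here.

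Glycolysis splits 1 glucose into a pair of triose phosphates and oxidises these to pyruvate, with hexokinase, phosphofructokinase and pyruvate kinase catalysing its near-irreversible steps. Lactate dehydrogenase reduces pyruvate to lactate in the cytosol. Alternatively the mitochondrial pyruvate carrier imports pyruvate and the pyruvate dehydrogenase complex converts it to acetyl-CoA, a reaction that kinases of the PDK family switch off by phosphorylating the complex and PDP phosphatases switch back on. FOXK1 and FOXK2 are known as inducers of aerobic glycolysis in other cells, and the question here was how the transcripts of each step compared between the control and the FOXK2 hairpin lines.

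The count of the targeted gene itself was lower in shFOXK2 without passing the test. FOXK2 (ENSG00000141568.21) measured 80.4 and 93.3 CPM (counts scaled to a common library total) in the shCtrl libraries and 76.2 and 59.4 CPM in the shFOXK2 libraries. Its groups did not overlap, and its log2 fold change, shFOXK2 over shCtrl, was −0.36 (SE 0.25, edgeR adjusted p = 0.258). With an offset on the A content of transcripts, described below, the difference was −0.02 (edgeR adjusted p = 0.932). By qRT-PCR and Western blot, the paper reported reduced FOXK2 mRNA and protein in OVCAR5 cells with hairpins against FOXK2. Library totals ran from 14284005 to 21950873 counts, so that 3 counts, taken as the limit of detection, corresponded to between 0.134 and 0.21 CPM. Cytokeratins and EPCAM were expressed in every library, with a summed level of the 7 epithelial and ovarian markers from 3439 to 4793 CPM, whereas WT1, a marker of serous ovarian carcinoma, had at most 2 counts in any library. In the same list MUC16, which encodes the CA-125 antigen, had 17.8 and 9.02 CPM in shCtrl and 0 and 0.438 CPM in shFOXK2, and the lineage factor PAX8 had 15.7 and 20.8 CPM against 10.9 and 8.87 CPM. Of 5 immune markers, CD14 alone was tested, and PTPRC, CD3E and CD68 had at most 3 counts. The summed marker levels ran from 17.4 to 22.3 CPM in shCtrl and from 9.12 to 9.26 CPM in shFOXK2 for the immune list, from 18.9 to 20.4 and from 13.4 to 16.3 CPM for the 5 fibroblast markers, and from 7.72 to 10.6 and from 0.631 to 1.97 CPM for the 3 endothelial markers. These 3 sums, MUC16 and PAX8 were lower in shFOXK2, and their part in the results was not tested.

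Transcripts of the pathway were lower in shFOXK2 at many steps and higher at none that passed the test. Of the 33 genes, 32 passed the filter on low counts, and 17 of these, or 53.1%, were lower at an adjusted p under 0.05 in the quasi-likelihood F test of edgeR, while 0 were higher and 15 did not pass. For comparison, 48.6% of the 16417 genes tested passed in either direction, 22.8% as lower and 25.8% as higher. The median log2 fold change of the 32 genes was −0.71, against 0.04 over all tested genes. For 25 of the 32 neither shFOXK2 library reached the level of the lower shCtrl library, a separation that 36.3% of all tested genes showed. Bulk RNA cannot tell fewer cells expressing a gene from less RNA per cell. The 10 genes HK1, PFKL, ALDOC, PFKFB3, PGK1, PGAM1, ENO2, PDK2, PDP1 and PDHB were lower in the edgeR fit, in each of 10 alternative treatments of the counts and with each of the 4 libraries left out in turn.

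**Figure D1:**
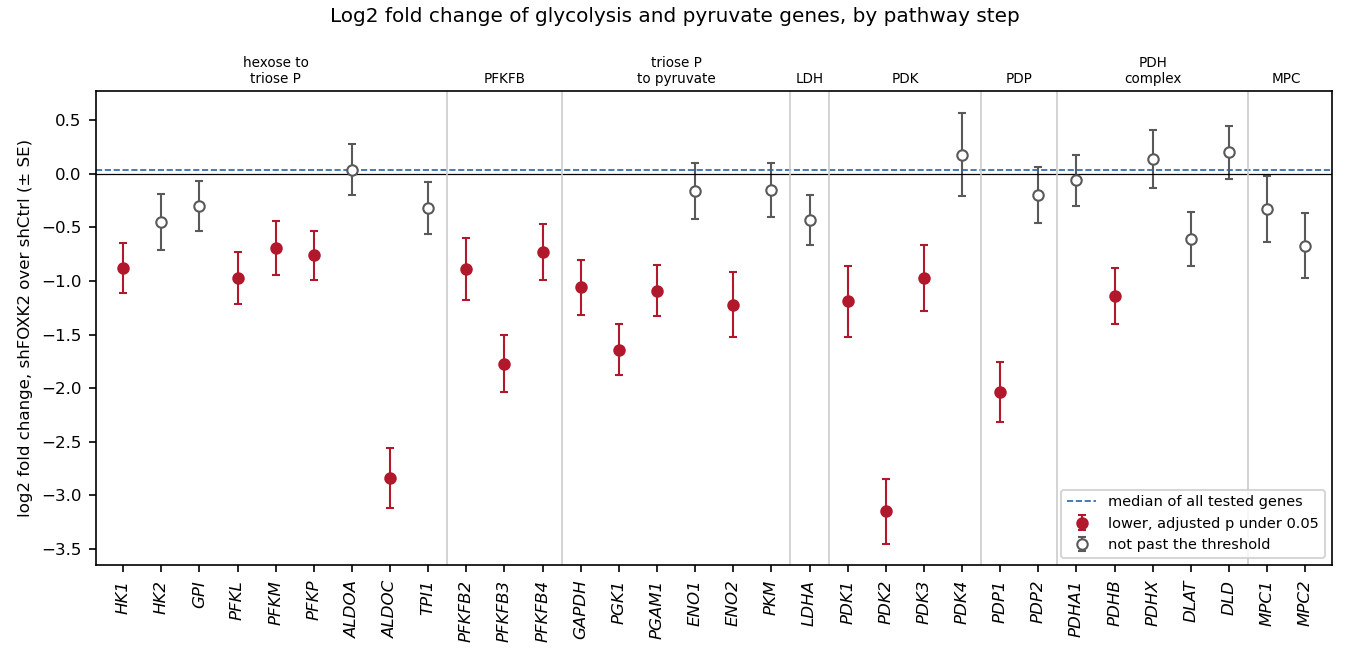
Log2 fold change (shFOXK2 over shCtrl) of the 32 tested genes, ordered by pathway step; points are the edgeR estimates, bars are ± 1 SE, filled points passed the test, and the dashed line is the median of all tested genes. The 17 filled points all lie below 0, and the genes furthest from 0 are PDK2 at −3.15 and ALDOC at −2.84.

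The preparatory part of glycolysis runs from glucose to the triose phosphates. Of its 9 genes 5 were lower, beside 22.8% of all tested genes, and the median log2 fold change of the 9 was −0.69. The hexokinase gene HK1 (ENSG00000156515.25, hg38 chr10:69269984-69401884), whose product phosphorylates incoming glucose, had 176 and 191 CPM in shCtrl and 106 and 93.9 CPM in shFOXK2. Both shFOXK2 libraries lay well below the controls, at 54.4% of the control mean (log2 fold change −0.88, SE 0.23, edgeR adjusted p = 0.00619). HK2, the inducible hexokinase often raised in tumours, had 49.5 and 52.3 CPM in shCtrl and 41.0 and 33.4 CPM in shFOXK2. Its groups also did not overlap, but the difference of −0.45 on the log2 scale (SE 0.26) did not pass (edgeR adjusted p = 0.158). GPI, which isomerises glucose 6-phosphate, had 377 and 447 CPM in shCtrl and 372 and 295 CPM in shFOXK2, a log2 difference of −0.30 (SE 0.23).

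All 3 phosphofructokinase genes, whose products commit the sugar to glycolysis, were lower. PFKL, the liver-type subunit, fell from 214 and 280 CPM to 117 and 136 CPM, so that its control libraries differed from each other by less than either did from the shFOXK2 libraries (log2 fold change −0.97, SE 0.24, edgeR adjusted p = 0.00421). PFKP, the platelet-type subunit, had 551 and 671 CPM in shCtrl and 375 and 347 CPM in shFOXK2 (log2 fold change −0.76, SE 0.23, edgeR adjusted p = 0.0136). PFKM, the muscle-type subunit, had 67.1 and 78.9 CPM against 48.1 and 42.3 CPM (log2 fold change −0.69, SE 0.25, edgeR adjusted p = 0.0342). The calls of PFKP and PFKM were the less stable ones. Without the second shFOXK2 library their edgeR adjusted p became 0.0783 and 0.152, and PFKM also lost its call without the second shCtrl library (0.0664), without the first shFOXK2 library (0.0578) and with the replicate block (0.0818). Without that second shFOXK2 library the log2 fold change was −0.74 for PFKP and −0.63 for PFKM, and why the calls were lost was not tested.

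The aldolase genes, whose products cleave fructose bisphosphate, went separate ways. ALDOC (ENSG00000109107.14, hg38 chr17:28573115-28576948), the brain-type aldolase, had 46.0 and 52.9 CPM in shCtrl and 7.37 and 6.46 CPM in shFOXK2, from raw counts of 1027 and 850 and of 105 and 118. Its shFOXK2 mean was 14% of the control mean, 7.14-fold lower by the fit (log2 fold change −2.84, SE 0.28, edgeR adjusted p = 4.26e-06). ALDOA, the major aldolase of most tissues, had 1558 and 2058 CPM in shCtrl and 1966 and 1758 CPM in shFOXK2. Both shFOXK2 values lay between those of the controls (log2 fold change 0.04, SE 0.24). Of the bases of the canonical ALDOA transcript, 89.8% lie in exons of another gene in GENCODE v44. The part of this overlap in the ALDOA count was not tested. Per unit of transcript length, ALDOC made up 2.92% and 2.55% of aldolase counts in shCtrl and 0.381% and 0.374% in shFOXK2. TPI1, which interconverts the triose phosphates, had 790 and 1059 CPM in shCtrl and 775 and 708 CPM in shFOXK2, a log2 difference of −0.32 (SE 0.24) that did not pass (edgeR adjusted p = 0.29).

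The bifunctional PFKFB enzymes make and degrade fructose 2,6-bisphosphate, the strongest allosteric activator of phosphofructokinase. All 3 of their genes in the set were lower, beside 22.8% of all tested genes. PFKFB3 (ENSG00000170525.21, hg38 chr10:6144934-6254644), the form with the highest kinase activity relative to its phosphatase activity, had 438 and 462 CPM in shCtrl and 168 and 96.4 CPM in shFOXK2. The shFOXK2 mean was 29.3% of the control mean, with both shFOXK2 libraries far below the controls and apart from each other (log2 fold change −1.77, SE 0.27, edgeR adjusted p = 0.000192). PFKFB2, known from heart, had 40.2 and 27.7 CPM in shCtrl and 21.0 and 15.8 CPM in shFOXK2 (log2 fold change −0.89, SE 0.29, edgeR adjusted p = 0.0195). PFKFB4 had 44.4 and 52.8 CPM in shCtrl and 31.8 and 27.0 CPM in shFOXK2 (log2 fold change −0.73, SE 0.26, edgeR adjusted p = 0.0316). PFKFB3 alone of the 3 kept its call without the second shFOXK2 library, where the edgeR adjusted p of PFKFB2 was 0.118 and that of PFKFB4 was 0.164. PFKFB2 also lost its call without the first shCtrl library (0.0993), and PFKFB4 without the second (0.061) and with the replicate block (0.0677). The PFKFB3 share of the counts of these 3 genes, per length, went from 84.2% and 84.4% in shCtrl to 75.6% and 68.4% in shFOXK2, a family share chosen after its values were seen.

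In the payoff part of glycolysis, from triose phosphate to pyruvate, 4 of 6 genes were lower, beside 22.8% of all tested genes. The median log2 fold change of the 6 genes was −1.07. GAPDH (ENSG00000111640.15, hg38 chr12:6534512-6538374), which oxidises glyceraldehyde 3-phosphate and is often used as a reference gene, had 2517 and 3499 CPM in shCtrl and 1650 and 1242 CPM in shFOXK2. The controls stood apart from each other, and the shFOXK2 libraries were below either of them, at 48.1% of the control mean (log2 fold change −1.06, SE 0.26, edgeR adjusted p = 0.00427). Without the second shFOXK2 library the difference was −0.90 and its edgeR adjusted p was 0.0727. PGK1 (ENSG00000102144.15, hg38 chrX:77910739-78129295), which makes the first ATP of the pathway, had 658 and 828 CPM in shCtrl and 251 and 227 CPM in shFOXK2. This was 32.1% of the control mean (log2 fold change −1.64, SE 0.24, edgeR adjusted p = 8.37e-05). PGAM1, which moves the phosphate of phosphoglycerate, had 118 and 150 CPM in shCtrl and 64.9 and 61.4 CPM in shFOXK2 (log2 fold change −1.09, SE 0.24, edgeR adjusted p = 0.00217). The summed counts of PGAM1 pseudogene symbols were 2.04% and 0.995% of the PGAM1 count in shCtrl and 5.41% and 7.05% in shFOXK2. The part of reads shared with those copies in the PGAM1 value was not tested.

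The enolases, like the aldolases, differed by gene. ENO2, the neuronal enolase, had 81.6 and 95.0 CPM in shCtrl and 48.8 and 27.0 CPM in shFOXK2 (log2 fold change −1.22, SE 0.30, edgeR adjusted p = 0.00421). ENO1, the ubiquitous enolase, had 2726 and 3656 CPM in shCtrl and 3148 and 2539 CPM in shFOXK2, with overlapping groups (log2 fold change −0.16, SE 0.26, edgeR adjusted p = 0.621). ENO2 made up 2.27% and 1.98% of enolase counts per length in shCtrl and 1.19% and 0.817% in shFOXK2. PKM, the pyruvate kinase gene of most dividing cells, had 3541 and 4558 CPM in shCtrl and 3907 and 3405 CPM in shFOXK2, again with overlapping groups (log2 fold change −0.15, SE 0.25, edgeR adjusted p = 0.659).

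**Figure D2:**
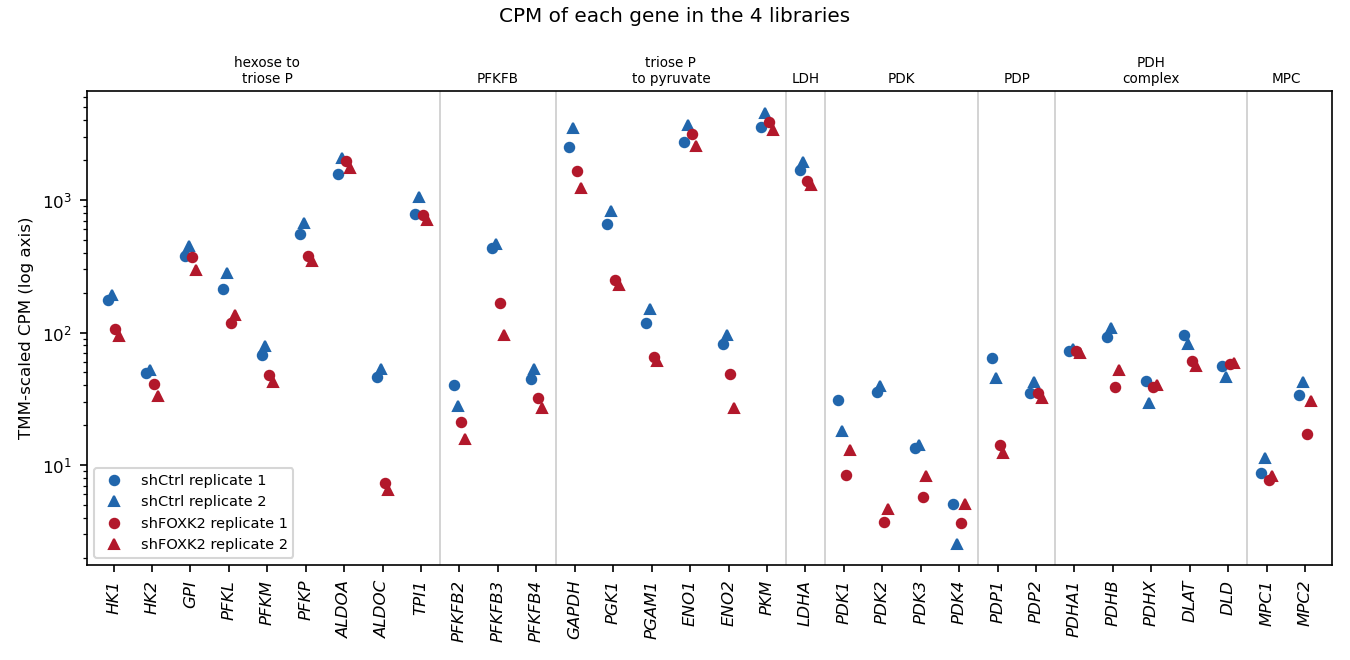
CPM, counts scaled to a common library total (log axis), of the 32 tested genes in each of the 4 libraries, by pathway step; each point is 1 library. The shFOXK2 points lie below both shCtrl points for 25 genes, whereas those of ALDOA, ENO1 and PKM overlap the shCtrl points.

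Ratios between genes of 1 library do not depend on the scaling between libraries. The ENO1 count was 1.08 and 1.04 times the GAPDH count in shCtrl and 1.91 and 2.04 times it in shFOXK2, and that of PKM was 1.41 and 1.30 times the GAPDH count in shCtrl and 2.37 and 2.74 times it in shFOXK2. The ALDOA count went from 0.619 and 0.588 of the GAPDH count to 1.19 and 1.42 of it. By the same measure ENO1 stood at 4.14 and 4.42 times PGK1 in shCtrl and at 12.6 and 11.2 times in shFOXK2. These ratios were chosen after the values were seen, and they show unequal change, not which gene of a pair moved. The 33 genes together took 1.65% and 1.98% of all counts in shCtrl and 1.48% and 1.31% in shFOXK2.

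Nearly all lactate dehydrogenase transcripts of LDHA and LDHB came from LDHA in all 4 libraries. LDHA (ENSG00000134333.15, hg38 chr11:18394560-18408425), the muscle-type lactate dehydrogenase, had 1678 and 1934 CPM in shCtrl and 1395 and 1292 CPM in shFOXK2. The groups did not overlap, and the difference of −0.43 on the log2 scale (SE 0.23) did not pass the test (edgeR adjusted p = 0.147). LDHA passed as lower with an offset on GC content (−0.69, edgeR adjusted p = 0.0433) and with the replicate block and an offset on A content together (−0.59, 0.0427). LDHB, the heart-type gene, had raw counts of 0, 0, 0 and 1, so it was not tested and no fold is given. Its limit of detection of 3 counts corresponded to between 0.008% and 0.0151% of the LDHA count of the same library. The neighbouring genes GOLT1B, with 312 to 598 counts, and RECQL, with 118 to 240 counts, were detected in every library. In the GENCODE v44 annotation 306 of the 1303 bases of the canonical LDHB transcript lie outside the exons of any other gene, and the rest are shared with a readthrough gene, where a counter can discard reads as ambiguous. The annotation used for the deposited counts is not given in the sources used here, and the part of this overlap in the LDHB count was not tested.

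Among the regulators of pyruvate oxidation, the kinases that switch the pyruvate dehydrogenase complex off were lower for 3 of 4 genes. The share lower over all tested genes was 22.8%. PDK2 (ENSG00000005882.12, hg38 chr17:50094737-50112152) had 35.3 and 39.4 CPM in shCtrl and 3.72 and 4.66 CPM in shFOXK2, from raw counts of 788 and 633 and of 53 and 85. At 11.2% of the control mean, it had the largest difference of the set, 8.86-fold lower by the fit (log2 fold change −3.15, SE 0.30, edgeR adjusted p = 3.14e-06). Exons of SAMD14, on the opposite strand, overlap 62.8% of the canonical PDK2 bases, and a count that ignores strand could not separate the pair; the SAMD14 rows held 26 and 24 reads in the controls against 4 and 7 with the FOXK2 hairpin. PDK1, a hypoxia-inducible kinase, had 30.7 and 18.0 CPM in shCtrl and 8.42 and 12.9 CPM in shFOXK2 (log2 fold change −1.19, SE 0.33, edgeR adjusted p = 0.00969). Without the first shCtrl library its difference was −0.79 with an edgeR adjusted p of 0.0587. PDK3 had 13.5 and 14.1 CPM in shCtrl and 5.75 and 8.33 CPM in shFOXK2 (log2 fold change −0.97, SE 0.31, edgeR adjusted p = 0.0192), and without the first shFOXK2 library its edgeR adjusted p was 0.108. PDK4, the kinase induced by fasting, had 5.10 and 2.55 CPM in shCtrl and 3.65 and 5.09 CPM in shFOXK2, with overlapping groups (log2 fold change 0.18, SE 0.39).

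The make-up of the kinase family differed accordingly. Per unit of transcript length, PDK2 made up 48.0% and 53.7% of PDK counts in shCtrl and 18.4% and 16.3% in shFOXK2. PDK3 went from 35.5% and 37.2% to 54.9% and 56.3%, although its own level was lower, and PDK4 from 6.49% and 3.25% to 16.8% and 16.6%. The shares of PDK1 overlapped between the groups on this scale. A permutation of 2 against 2 libraries cannot go below p = 0.333, so the shares are given as values without a test.

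**Figure D3:**
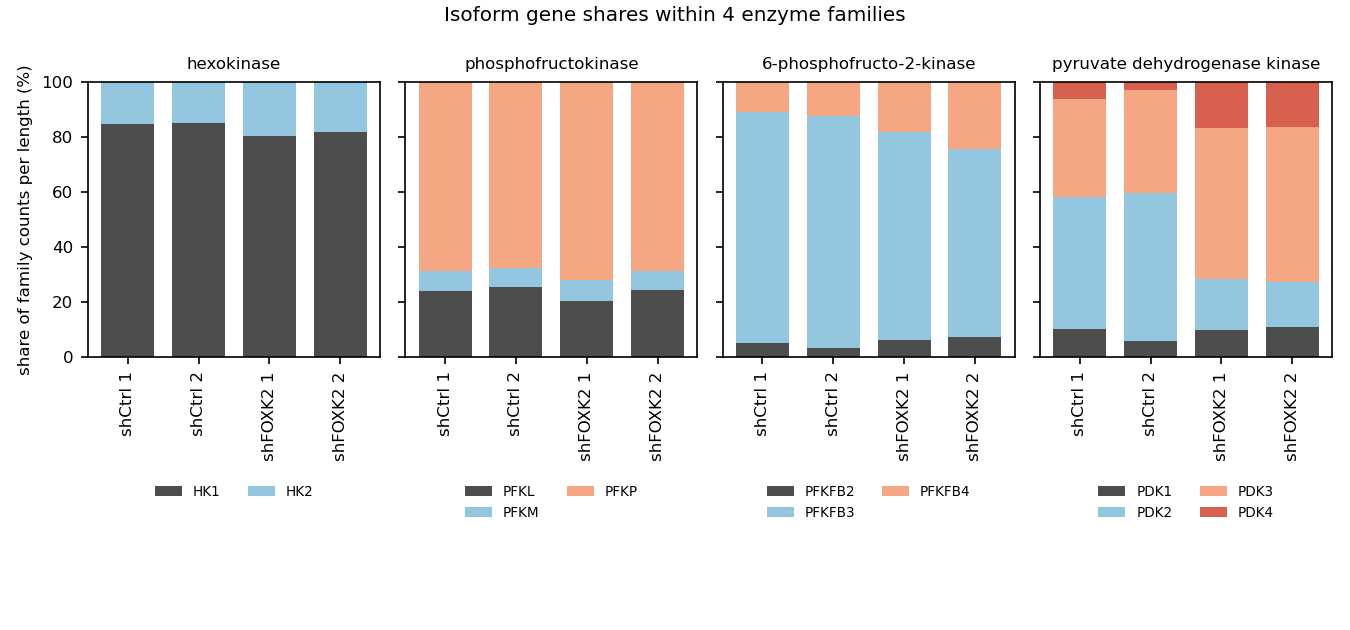
Share of each isoform gene in the length-scaled counts of its enzyme family (%), 1 stacked bar per library. In the pyruvate dehydrogenase kinase panel the PDK2 segment is 48.0% and 53.7% in the shCtrl bars and 18.4% and 16.3% in the shFOXK2 bars, whereas the phosphofructokinase bars overlap between the groups.

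The phosphatase gene PDP1 (ENSG00000164951.16), whose product reactivates the complex, was lower along with the kinases it opposes. It had 63.9 and 45.5 CPM in shCtrl and 14.2 and 12.4 CPM in shFOXK2, 24.3% of the control mean (log2 fold change −2.04, SE 0.28, edgeR adjusted p = 5.7e-05). Its relative PDP2 had a log2 difference of −0.20 (SE 0.26, edgeR adjusted p = 0.543). Of the 5 subunits of the complex itself, 1 (20%) was lower, beside 22.8% of all tested genes, and the median log2 fold change was −0.06. PDHB, the beta subunit of the pyruvate-decarboxylating component, had 92.1 and 109 CPM in shCtrl and 39.1 and 52.2 CPM in shFOXK2 (log2 fold change −1.14, SE 0.26, edgeR adjusted p = 0.00242). Its partner subunit PDHA1 had a log2 difference of −0.06 (SE 0.24). DLAT, the acetyltransferase core, had 95.2 and 82.0 CPM in shCtrl and 60.9 and 55.5 CPM in shFOXK2, and its difference of −0.61 (SE 0.25) narrowly missed the threshold (edgeR adjusted p = 0.0541). DLAT passed with the DESeq2 Wald test (adjusted p = 0.0327) and with an offset on GC content (−1.04, edgeR adjusted p = 0.00307). It did not pass with library size alone (0.0647) or with the replicate block (0.129). The complex had 2 calls with DESeq2 and 3 with the GC content offset. Without the second shCtrl library the DLAT difference was −0.78. The dehydrogenase DLD (log2 difference 0.20, SE 0.25) and the binding subunit PDHX (0.14, SE 0.27) did not pass either. Of the 2 mitochondrial pyruvate carrier subunits, which act as a complex, MPC1 had a log2 difference of −0.33 (SE 0.31) and MPC2 one of −0.67 (SE 0.30, edgeR adjusted p = 0.0836). MPC2 had 33.6 and 42.6 CPM in shCtrl and 17.2 and 30.5 CPM in shFOXK2, and it passed the test without the first shCtrl library (0.0194) and without the second shFOXK2 library (0.00965).

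Sequence upstream of the genes was compared because hypoxia-inducible factors and MYC, known activators of glycolytic genes, bind short motifs that share letters. The core of the hypoxia response element, ACGTG, was searched on both strands of RefSeq promoter windows of assembly GRCh38.p14, which run from 250 bases before to 50 bases after a start. Of the 33 genes, 31 had a window, and PFKFB2 and PDP1 had none. ACGTG occurred in 39% of the 59 windows of these genes and in 21.4% of all 35116 windows. By window it occurred in 35.3% of the 34 windows of lower genes and in 44% of the 25 windows of the other genes. By gene, where any window with a match counts, it occurred in 11 of 15 lower genes and in 8 of 16 others. Genes with more windows have more places for a match, and no share by gene was taken over all genes. The E-box CACGTG, which contains ACGTG, occurred in 15.3% against 7.26% of all windows, the GC box CCGCCC in 69.5% against 45%, and the forkhead motif TGTTTAC in 0 of 59 against 3.42%. For each of the 17 genes of the glycolytic chain and lactate dehydrogenase, the window nearest to the GENCODE canonical start was taken. The motif lay before the RefSeq start of that window in 4 of the 9 genes that were lower. It did so in 4 of the 7 that were tested and did not pass. For these 8 genes the match nearest to the start is given with 12 bases on either side, 5′ to 3′ on the strand of the gene, with the match in capitals as ACGTG or its reverse complement. The first 4 were lower in shFOXK2 and the other 4 did not pass.
ALDOC, chr17:28576907-28576935, minus strand: ccccggaggagtCACGTagctctgcgaca
GAPDH, chr12:6535172-6535200, plus strand: ctctgcggggtcACGTGtcgcagaggagc
PGK1, chrX:78104053-78104081, plus strand: aaacggaagccgCACGTctcactagtacc
ENO2, chr12:6914450-6914478, plus strand: acccgcgctcgtACGTGcgcctccgccgg
HK2, chr2:74834067-74834095, plus strand: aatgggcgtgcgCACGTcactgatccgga
GPI, chr19:34364818-34364846, plus strand: acactgcctgtaACGTGgaaggtgttcga
ALDOA, chr16:30065550-30065578, plus strand: tgtggtccgagtCACGTccgaggggggtg
LDHA, chr11:18394478-18394506, plus strand: cgtgggttcccgCACGTccgccggccccc
The matches shown lie from 28 bases before the start, in ALDOC, to 198 bases, in ALDOA. The GAPDH match is part of an E-box. TPI1, ENO1 and PKM, which did not pass, and PFKL, PFKM, PFKP, HK1 and PGAM1, which were lower, had no match before the start in that window. TPI1, PFKM and PFKP had a match elsewhere, in another of their windows or not wholly before the start of the window used. The window used lay 3283 bases from the canonical start for PFKM, 1627 bases for PGAM1, 422 for PFKP and 217 for HK1. Among the genes with a match shown, it lay 747 bases away for GAPDH and 204 bases for GPI. The GAPDH and GPI matches thus lie before a RefSeq start that is not the canonical one.

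Neighbouring pathways were read from lists assembled from general knowledge. Their counts of calls stand beside 22.8% lower and 25.8% higher over all tested genes. Transporters of glucose and lactate were lower for 7 of 11 tested genes and higher for 1, with a median log2 fold change of −1.47. SLC2A3, the high-affinity glucose transporter GLUT3, had 100 and 104 CPM in shCtrl and 2.60 and 3.45 CPM in shFOXK2 (log2 fold change −5.07, SE 0.31, edgeR adjusted p = 1.19e-07). SLC2A12 and SLC2A10, further members of the same transporter family, had log2 fold changes of −4.39 and −3.85, both past the test. SLC2A12 had 1.26 and 4.38 CPM in the shFOXK2 libraries, and its log2 fold change was −5.61 without the second of them and −3.82 without the first. The higher gene was the lactate and pyruvate transporter SLC16A7, named after its values were seen, with 15.2 and 4.98 CPM in shCtrl and 18.2 and 26.5 CPM in shFOXK2 (1.14). SLC16A7 lost its call without the second shCtrl library (0.49, edgeR adjusted p = 0.252), without the second shFOXK2 library (0.82, 0.071), with an offset on A content (0.37, 0.384) and with scaling by library size alone (1.16, 0.0958), and its difference was 2.13 without the first shCtrl library. The lactate exporter gene SLC16A3, named after its values were seen, had 505 and 620 CPM in shCtrl and 261 and 229 CPM in shFOXK2 (log2 fold change −1.20), and SLC2A1, the basal glucose transporter named in the same way, had 398 and 469 CPM in shCtrl and 156 and 131 CPM in shFOXK2 (−1.59).

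Among 9 tested glycolytic isoforms and regulators outside the 33 genes, 2 were lower and 1 was higher, and their median of 0.18 lay above 0. Their share lower, 22.2%, was near the 22.8% of all tested genes. The lower ones were PGM1, which links glycogen to glycolysis (−1.20), and the hexokinase domain gene HKDC1 (−0.82), whose call was lost without the second shFOXK2 library (edgeR adjusted p = 0.0787). The higher one was LDHC, the testis-type lactate dehydrogenase, with 12 to 47 counts (1.16). LDHC lost its call without the first shCtrl library (0.0655), without the second (0.288) and without the second shFOXK2 library (0.197). In gluconeogenesis and anaplerosis 4 of 7 tested genes were lower and 0 higher, with a median of −0.85. The largest difference, that of PCK1 (−3.13), rested on raw counts of 83 and 63 in shCtrl and of 6 and 8 in shFOXK2. The next lower genes were PC (−1.33) and PCK2 (−1.17), and PCK1 and PCK2 feed carbon back from the mitochondrial acids. The fourth, named after its values were seen, was the malic enzyme gene ME1 (−0.85), which lost its call without the first shCtrl library (edgeR adjusted p = 0.0745) and without the second shFOXK2 library (0.0942). The pentose phosphate pathway, which branches off at glucose 6-phosphate, had 1 lower gene, PGD (−1.28), and 1 higher gene, RPIA (0.87), of 7 tested. The share lower was 14.3%, beside 22.8% of all tested genes, and the median was −0.27. RPIA lost its call without the first shFOXK2 library (0.0603). Its number of calls was 4 without the first shCtrl library and 1 without the first shFOXK2 library. In the tricarboxylic acid cycle 5 of 17 genes (29.4%) were lower and 1 was higher, with a median of −0.36. Of all tested genes 22.8% were lower and 25.8% higher. OGDH (−1.18), a subunit of the oxoglutarate dehydrogenase complex, was lower and the succinyl-CoA ligase subunit SUCLA2 was higher (1.16), but not with the offset on A content (0.07). DLST (−0.95) and SDHC (−1.08), named after their values were seen, were also lower, as was SDHA (−0.66, edgeR adjusted p = 0.0278). SDHA lost its call with the replicate block (0.0715), with the offset on A content (−0.30, 0.137), without the second shCtrl library (0.0699), without the first shFOXK2 library (0.0553) and without the second (0.111).

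Genes known to be induced by hypoxia outside glycolysis were lower for 9 of 13 and higher for 0, with a median of −1.21. Of all tested genes 22.8% were lower and 25.8% higher. The largest differences among these 13 hypoxia genes were those of CA9, a carbonic anhydrase (−2.71), NDRG1 (−2.14) and the angiogenic factor VEGFA (−2.06). The CA9 value rested on raw counts of 69 and 63 in shCtrl and of 9 and 8 in shFOXK2. Of 8 transcription factor genes known to act on glycolytic genes, 5 were lower. HIF1A, the oxygen-regulated subunit of the hypoxia-inducible factor, had 631 and 322 CPM in shCtrl and 204 and 161 CPM in shFOXK2 (log2 fold change −1.38), and its partner ARNT had 55.0 and 54.5 CPM against 21.9 and 22.6 CPM (−1.30). The HIF1A difference was −0.85 without the first shCtrl library and still passed. EPAS1, which encodes the related HIF2 alpha subunit, MYC and the FOXK2 paralog FOXK1 had log2 fold changes of −1.12, −1.05 and −1.16. FOXK1 had 206 and 204 CPM in shCtrl and 95.8 and 87.8 CPM in shFOXK2. Its difference passed the test (edgeR adjusted p = 0.000908), whereas that of FOXK2 itself did not. The glucose-sensing factors MLXIP and MLXIPL had log2 differences of 0.01 and −0.12 and did not pass.

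**Figure D4:**
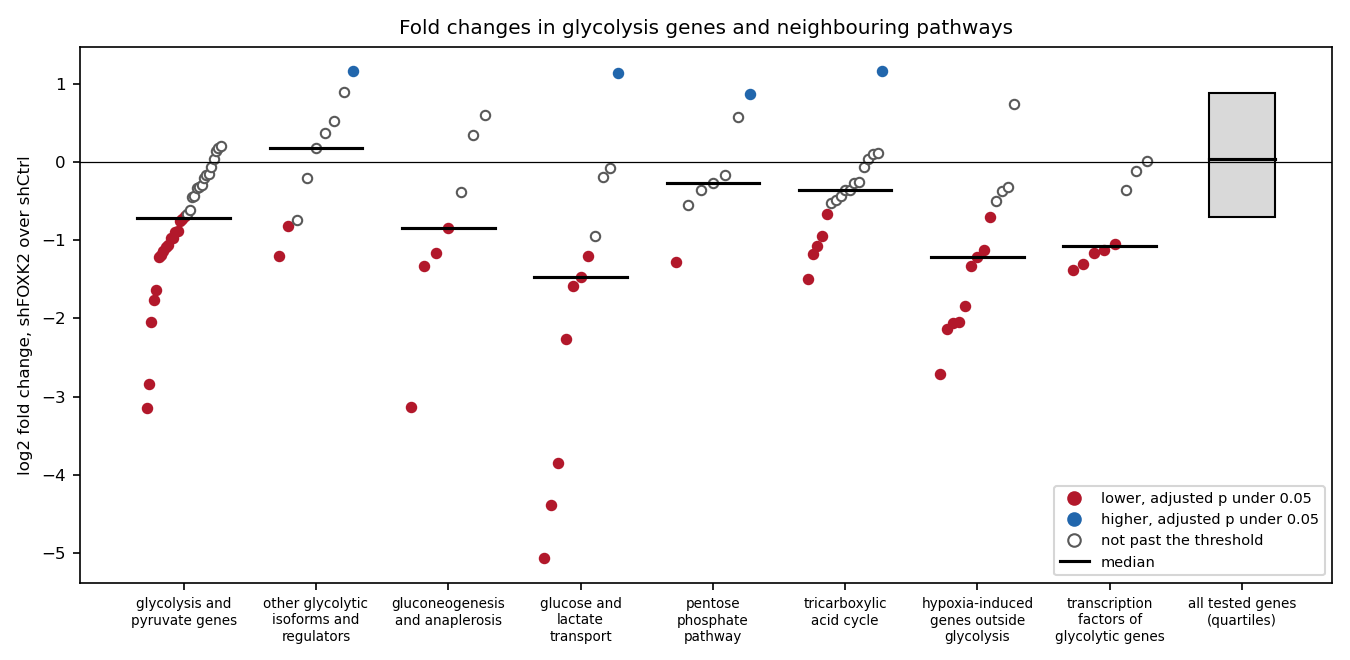
Log2 fold change (shFOXK2 over shCtrl) of every tested gene of the 33 and of 7 neighbouring lists; each point is 1 gene and each bar is the median of its list, and the box at the right spans the quartiles of all tested genes. The medians run from −1.47 for the transporters to 0.18 for the other glycolytic isoforms.

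Log2 fold changes in these libraries moved with the base composition of transcripts across all genes. Tested genes with 22% to 24% A in the canonical transcript had a median log2 fold change of −0.35 over 1591 genes, and those with 30% or more had one of 0.76 over 2842 genes. The 32 tested genes held from 18.6% to 31.6% A, with a median of 24.8% against 26% over all tested genes. In the class from 22% to 24% the 7 genes of the set had a median of −0.76, and in the class from 28% to 30% the 6 genes had a median of −0.90 beside 0.08 for all 2161 genes. A smooth offset on A content brought the median of the 32 genes to −0.60, with 15 lower and 0 higher. With this offset PFKM, PFKP, PFKFB2 and PFKFB4 no longer passed, at edgeR adjusted p-values of 0.113, 0.074, 0.0755 and 0.1. HK1, PFKL, GAPDH and PGAM1 still passed with log2 fold changes of −0.53, −0.59, −0.69 and −0.72. DLAT (−1.01) and PDHX (−0.59, edgeR adjusted p = 0.0226) then passed as lower, and 3 of the 5 subunits of the pyruvate dehydrogenase complex were called in place of 1. The preparatory genes had 3 calls in place of 5 and the PFKFB genes 1 in place of 3. GPI, TPI1, ENO1, PKM and PDHA1, which had not passed, changed sign to values between 0.03 and 0.20. With an offset on GC content instead, 17 genes were called, and the median was −0.68. These were not the same 17 genes, since PFKM, PFKP and PFKFB4 lost their calls and LDHA, DLAT and DLD passed as lower. With this offset 8 genes changed sign, DLD among them.

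**Figure D5:**
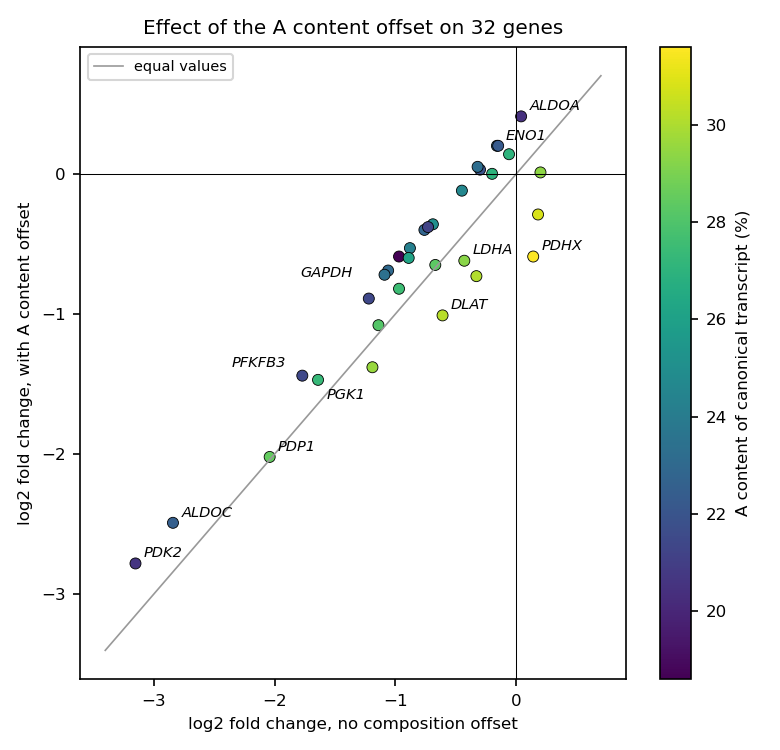
Log2 fold change of the 32 tested genes without (horizontal) and with (vertical) the offset on A content, coloured by the A content of the canonical transcript (%); the grey line marks equal values. Genes with little A lie above the line and genes with much A below it, and PDK2 and ALDOC remain furthest from 0 at −2.78 and −2.49.

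Several of the genes differed from those around them on the chromosome. Tested genes within 5 Mb of PDP1 had a median log2 fold change of 1.18 over 39 genes, opposite in sign to PDP1 at −2.04. Around PFKFB3 the median was 0.46 over 23 genes, and around PGK1 it was 0.36 over 19 genes. GAPDH, TPI1 and ENO2 lie close together on the short arm of chromosome 12, in surroundings with a median of −0.17, and their own values were −1.06, −0.32 and −1.22.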

How the data were processed

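Polyadenylated RNA of 2 shCtrl and 2 shFOXK2 OVCAR5 libraries was sequenced as short single-end reads. The authors aligned reads to hg38 (GRCh38) with STAR 2.5.2, counted them with HTSeq and deposited raw counts per gene symbol, with no normalization. Annotation version and strand setting are not given in the sources used here, and overlapping genes may have lost or gained reads for that reason. In GENCODE v44, exons of other genes cover 89.8% of canonical ALDOA bases, 32.8% of those of GAPDH, 28.5% of PDHA1 and 25.9% of DLAT.

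Titles gave the groups. After filterByExpr and TMM scaling, edgeR 4.0.16 (R 4.3.3) compared them by its 2-sided quasi-likelihood F test. Adjustment was by Benjamini-Hochberg across the 16417 tested genes, with 0.05 as threshold. SE was the absolute log2 fold change over the square root of F. CPM values used the TMM factors. Transcript length, A content (84.6% of tested genes) and positions came from GENCODE v44. With 2 libraries a group, p-values measure the spread between these libraries, which may be technical, and detection limits cover counting error alone.

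The members and gene lists were chosen with earlier results of these data known. Named were every member, all 8 transcription factors, and of each other list the 3 genes with the largest absolute log2 fold changes among those that passed; some genes under this rule are not reported here. Marker genes were named from fixed lists. Alternatives were DESeq2 1.42.0, other scalings and filters, A and GC content offsets (lowess, span 0.2), a replicate block and leaving out each library. No label says what a replicate number shares, so numbers were not treated as pairs. Deviations of log CPM from the group mean had a correlation of −0.113 across genes between same-numbered libraries. The test was checked on simulated counts with few changed genes and no trend with base composition. That check does not cover conditions such as these, where 48.6% of tested genes passed.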

Additional observations from a re-analysis of the deposited data

How the results depend on the processing

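With 2 libraries a group, differences near the threshold depended on single libraries, and genes under about 3 counts could not be compared. The number of the 32 genes called ranged from 15 to 19 over 10 alternatives and from 13 to 16 with 1 library left out, with 0 higher in each. The fit with the replicate block called 15 and had a median log2 fold change of −0.72, and its only lost calls were PFKM and PFKFB4. With the numbers crossed, added after seeing the data, the block called 18. The median log2 fold change of the set, −0.71, was −0.79 with DESeq2, −0.67 with library size alone, −0.81 with no filter, −0.66 with at least 10 counts in every library, −0.60 with the A offset and −0.59 with the replicate block and A offset together, and from −0.81 to −0.68 with 1 library left out. Over all genes tested in both fits, the log2 fold change of a gene shifted by a median of −0.10 without a filter, of 0.18 with GC content and of 0.26 with A content as offset.

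Sign changes fell on genes that had not passed. With the A offset, the GC offset and the block with A offset in turn, the log2 difference was 0.03, 0.05 and 0.03 for GPI, 0.05, 0.03 and 0.06 for TPI1, 0.20, 0.17 and 0.20 for ENO1 and for PKM, 0.14, 0.08 and 0.14 for PDHA1, −0.29, −0.28 and −0.28 for PDK4, −0.59, −0.19 and −0.59 for PDHX, and 0.22, 0.11 and 0.22 for MLXIPL. PDP2 was at 0.01 with the block and A offset, and DLD at −0.53 with the GC offset (edgeR adjusted p = 0.0492). ALDOA was at −0.03 with DESeq2 and −0.06 with no filter, and MLXIP at −0.07 with DESeq2, −0.01 with its size factors and −0.09 with no filter. With 1 library left out, ALDOA ranged from −0.18 to 0.19, PDK4 from −0.29 to 0.75, PDHX from −0.18 to 0.40, MLXIP from −0.07 to 0.03 and MLXIPL from −0.32 to 0.01. The causes were not tested. Without length scaling, the PDK1 share of kinase counts was 30.3% in shCtrl and 40.4% in shFOXK2, and its groups no longer overlapped. SUCLA2 lost its call with the A offset (0.07) and the GC offset (0.50).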
